A study of Mus musculus with 8 samples.

Results

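Connexins and pannexins form channels through which small molecules pass between cells or out of them. The members described here are 8 rows of a count table of 55536 mouse genes, taken by gene symbol: the connexin genes Gjd2, Gja1, Gjb1, Gjb2, Gjb5 and Gjb6 and the pannexin genes Panx1 and Panx3. RNA was sequenced from MIN6, a mouse insulin-secreting tumour line used as a model of the β cell, to ask what misexpression of the zinc-finger factor Klf4 does to its transcriptome. All cells carried the label wild type and were transfected for 48 h with Lipofectamine 3000, a lipid carrier of plasmid DNA. The control group received the empty vector pcDNA 3 and the Klf4 group received pGloMyc-Klf4, with 4 biological replicates each. Replicates 1 and 2 of both groups made up batch 1, and replicates 3 and 4 batch 2. The plasmids differ in name, so an effect of the backbone and one of Klf4 cannot be told apart, and the share of cells that took up plasmid was not given in the sources used here. Each library held 45417853 to 52731176 counts. The labels' extraction text names islets, whereas every sample is labelled MIN6.

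A connexin spans the membrane repeatedly and assembles into a hemichannel, which docks with a hemichannel of the neighbouring cell to make a gap junction. In β cells the main connexin is Cx36, the product of Gjd2, which couples neighbouring cells electrically and lets an islet oscillate as a unit. Connexins of the β subfamily (Gjb genes) are typical of liver, glands and stratified epithelia. Pannexins resemble connexins in topology but are known mainly as single-membrane channels that release ATP to purinergic receptors.

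In Klf4-transfected cells the β-subfamily connexin genes Gjb1 and Gjb5 rose, Gjb2 and Gjb6 were read where control cells gave no read, and Gjd2 was slightly lower. Panx1 gave no change past the threshold, and Gja1 and Panx3 had too few reads to be tested. Gjb1 went from at most 12 reads per library to between 307 and 455, Gjb5 from at most 2 to between 71 and 115, and Gjb2 and Gjb6 from 0 to between 6 and 26. Of 8 members, 7 had a count in some library and 4 passed the filter on low counts. Among those 4, tested by edgeR's quasi-likelihood test with a batch term at an adjusted p under 0.05, Gjb1 and Gjb5 were higher, Gjd2 was lower and Panx1 did not pass. Over all 18266 genes tested, 36.6% changed, 21.1% higher and 15.5% lower. Of these calls 57.7% were increases, a share that was 72.7% when scaling factors came from highly expressed genes instead of TMM. Gjb1 and Gjb5 passed the filter only through their Klf4 libraries, so their calls add nothing beyond their own sizes.

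**Figure D1:**
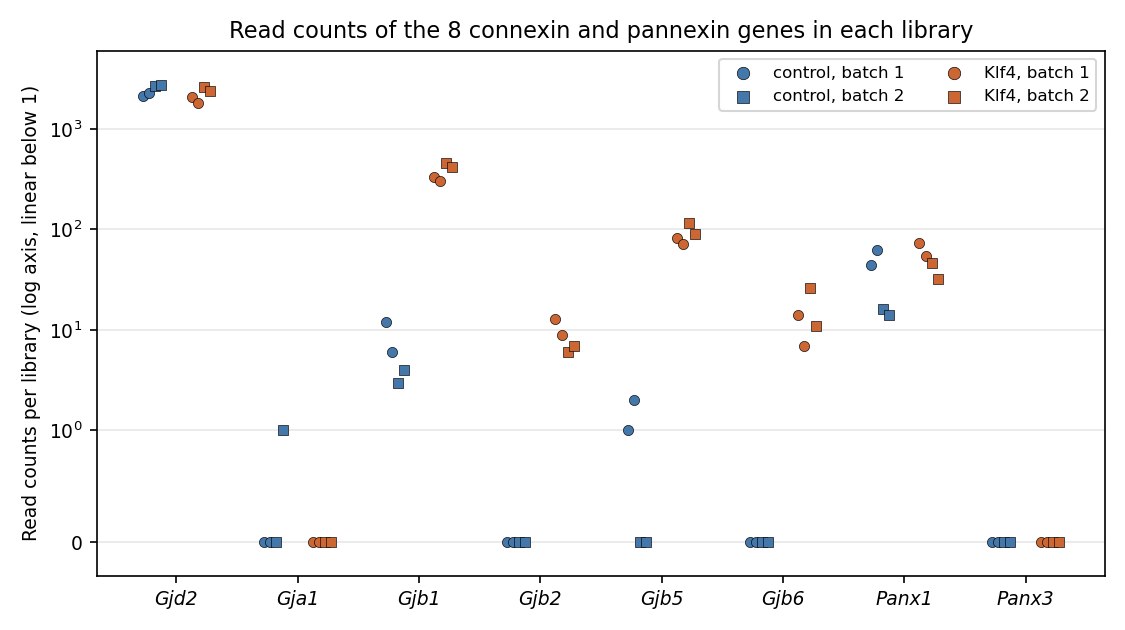
Read counts (vertical axis, logarithmic, linear below 1) of the 8 members (horizontal axis) in each of 8 libraries; blue points are control and orange points Klf4 libraries, circles batch 1 and squares batch 2. For Gjb1, Gjb2, Gjb5 and Gjb6 every Klf4 library lies above every control library, Gjd2 stays between 1818 and 2707 counts in all libraries, and Panx3 is at 0 throughout.

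The stretches before the transcription starts of Gjb1, Gjb5, Gjb2 and Gjb6 are shown because Klf4 binds GC-rich sites with a GGGTG core, also called a CACCC box, and these genes were all higher with Klf4. The stretch of Gjd2, which moved the other way, is set beside them. RefSeq windows of build GRCm38.p6 were found for 7 of 8 members, with 4 starts for Gjb1. Each stretch holds the 250 bases before a start, 5′ to 3′ on the gene's strand, and that of Gjb5 stops after 233 bases at the end of its GENCODE gene model. Capitals mark every match of GGGNGTGG or GGGTG on either strand. Of the Gjb1 starts, numbered along the chromosome, start 2 is shown for its match of the longer motif and start 4 for its 5 GGGTG matches. The stretches lie at chrX:101376985-101377234 (plus strand) and chrX:101383482-101383731 (plus strand) for Gjb1, chr4:127358182-127358414 (minus strand) for Gjb5, chr14:57104703-57104952 (minus strand) for Gjb2, chr14:57133612-57133861 (minus strand) for Gjb6 and chr2:114013620-114013869 (minus strand) for Gjd2.
Gjb1 start 2: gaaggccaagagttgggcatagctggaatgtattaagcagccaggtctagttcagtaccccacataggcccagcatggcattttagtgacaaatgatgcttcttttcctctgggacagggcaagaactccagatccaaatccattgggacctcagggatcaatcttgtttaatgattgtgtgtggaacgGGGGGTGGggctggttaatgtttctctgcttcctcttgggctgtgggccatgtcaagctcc
Gjb1 start 4: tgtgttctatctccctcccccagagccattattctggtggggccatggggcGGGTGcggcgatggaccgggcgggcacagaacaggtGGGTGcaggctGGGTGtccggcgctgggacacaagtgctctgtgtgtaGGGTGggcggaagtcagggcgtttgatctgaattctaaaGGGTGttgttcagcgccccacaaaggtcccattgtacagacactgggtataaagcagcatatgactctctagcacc
Gjb5: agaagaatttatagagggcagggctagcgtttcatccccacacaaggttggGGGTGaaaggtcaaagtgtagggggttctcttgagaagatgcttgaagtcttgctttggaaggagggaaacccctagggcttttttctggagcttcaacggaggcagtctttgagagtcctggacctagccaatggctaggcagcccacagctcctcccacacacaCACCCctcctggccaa
Gjb2: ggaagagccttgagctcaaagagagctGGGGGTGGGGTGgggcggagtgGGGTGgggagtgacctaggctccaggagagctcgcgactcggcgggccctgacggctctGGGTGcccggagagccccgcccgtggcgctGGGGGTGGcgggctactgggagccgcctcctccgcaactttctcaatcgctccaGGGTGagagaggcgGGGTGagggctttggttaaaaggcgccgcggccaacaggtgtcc
Gjb6: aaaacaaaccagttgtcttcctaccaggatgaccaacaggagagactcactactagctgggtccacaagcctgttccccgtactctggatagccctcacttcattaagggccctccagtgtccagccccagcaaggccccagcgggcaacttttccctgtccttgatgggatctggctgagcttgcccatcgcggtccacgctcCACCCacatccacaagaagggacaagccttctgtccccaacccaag
Gjd2: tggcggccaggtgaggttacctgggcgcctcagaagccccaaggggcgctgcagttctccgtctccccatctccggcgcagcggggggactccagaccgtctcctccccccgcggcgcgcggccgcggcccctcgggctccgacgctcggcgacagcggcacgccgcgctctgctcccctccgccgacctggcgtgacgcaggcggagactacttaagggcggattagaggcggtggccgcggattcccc

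Positions are those of a match's first base, and -1 is the base before the start. The longer motif, GGGNGTGG, matched at -223 and -112 before Gjb2 and at -61 before start 2 of Gjb1. A further match at start 4 of Gjb1 lay behind the start, at 39, outside the printed stretch. No match of this motif was found in the 300-base windows of Gjb5, Gjb6, Gjd2, Gja1 or Panx1. Across 32817 RefSeq windows 17.6% held it. The shorter GGGTG, which the longer motif can contain, matched 7 times before Gjb2, at -199 and -33 before Gjb5, at -46 before Gjb6, and in the windows of 3 of 4 Gjb1 starts. The windows of Gjd2, Gja1 and Panx1 held none. Of 10 member windows, with several for Gjb1, 6 held GGGTG and 3 held the longer motif. Windows were also found for other family genes. Of these only Gja4 was tested, and it did not pass. Gja3, Gja5, Gja6, Gja10 and Gjc3 were below the filter and so could not be called. GGGTG matched in the windows of Gja3, Gja5, Gja6 and Gja10 and not in those of Gja4 and Gjc3. The longer motif had 2 matches before a start of Gja3 and 1 match behind the start of Gja10, at 41. It had no match in the windows of Gja4, Gja5, Gja6 and Gjc3. Among family genes the longer motif was thus not limited to Gjb1 and Gjb2. GGGTG occurs in 57.5% of all windows, and a match is a description of the letters, not of binding. Exons of Gjd2 overlap exons of the antisense transcript A530058N18Rik.

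Gjd2 (ENSMUSG00000068615, GRCm38 chromosome 2, 114009601 to 114013619, minus strand) was the most abundant member in both groups. It had 2107, 2279, 2695 and 2707 counts in control replicates 1 to 4 and 2096, 1818, 2588 and 2366 in Klf4 replicates 1 to 4. Scaled to library size this was 44.8, 46.8, 54.7 and 56.1 CPM (library-size-scaled counts, with TMM factors) in control and 40.6, 40.2, 49.2 and 44.9 CPM in Klf4 libraries. Over all libraries the groups overlapped, since control libraries of batch 1 lay below the highest Klf4 library of batch 2. Within each batch both Klf4 libraries lay below both control libraries. The means were 50.6 ± 5.63 and 43.7 ± 4.25 CPM (SD, n = 4), and the fitted log2 fold change was -0.21 (SE 0.04), 0.865 times control, with an edgeR adjusted p of 0.000171. The log2 fold change was -0.19 in batch 1 (edgeR adjusted p = 0.00993) and -0.22 in batch 2 (0.00221), and the difference between batches did not pass the interaction test (adjusted p = 0.874). Within batch 1 24.4% of genes were called, within batch 2 29.8%, and 0.766% passed the interaction test. Without the batch term the same log2 fold change had an adjusted p of 0.103. In bulk RNA, fewer cells that express a gene and less RNA per cell cannot be told apart.

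β-cell markers of the same libraries are set beside Gjd2. Of 10 markers tested, none was higher, 5 were lower and 5 did not pass, with a median log2 fold change of -0.07 against -0.01 over all tested genes. The shares of all tested genes were 21.1% higher and 15.5% lower. Slc30a8, the zinc transporter of insulin granules, was the marker with the lowest value, -0.22 (SE 0.03, edgeR adjusted p = 5.23e-07), and Mafa, a β-cell transcription factor, stood at -0.18 (SE 0.04, 0.00066). The Mafa value differed between batches (edgeR interaction adjusted p = 0.00817): the groups overlapped in batch 1, with means of 687 and 662 CPM, and not in batch 2, with 588 and 477 CPM. Ins2, the insulin gene with the most reads, did not pass (-0.03, SE 0.03, adjusted p = 0.447). The exons of Gjd2 overlap A530058N18Rik, an antisense transcript annotated as a pair of gene entries. Its larger entry had 394 to 469 counts in control and 346 to 392 in Klf4 libraries. The strand setting of the counting was not given in the sources used here, so reads of Gjd2 and of its antisense partner cannot be told apart where they overlap.

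Gja1 (ENSMUSG00000050953, chromosome 10, 56377330 to 56402513, plus strand) encodes Cx43, the most widely expressed connexin of the body. Control replicate 4 held 1 count of it, and the remaining 7 libraries held none. Cx43 mRNA was therefore not detectable at this depth in either group. A count of 0 allows up to 3 counts per library, on average 0.0621 CPM in control and 0.0596 CPM in Klf4 libraries.

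Gjb1 (ENSMUSG00000047797, chromosome X, 101376378 to 101385629, plus strand) encodes Cx32, the main gap junction protein of hepatocytes and also found in exocrine glands and Schwann cells. It had 12, 6, 3 and 4 counts in control and 329, 307, 455 and 414 in Klf4 libraries. Every Klf4 library was above every control library by a wide margin, and batch 2 held the higher Klf4 values and the lower control values. Gjb1 rose from 0.13 ± 0.0869 to 7.41 ± 1.04 CPM (SD, n = 4), and edgeR fitted 5.81 as its log2 fold change (SE 0.21, adjusted p = 5.04e-16). The ratio of summed counts, scaled for library size, was 57.5 with a 95% exact interval of 38.8 to 89.2 that covers counting error only. The log2 fold change was 5.1 in batch 1 and 6.81 in batch 2. This difference had an unadjusted interaction p of 0.00997 and did not pass after adjustment in edgeR (0.266), and 10.6% of tested genes had an unadjusted interaction p under 0.05.

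Gjb5 (ENSMUSG00000042357, chromosome 4, 127354809 to 127358181, minus strand) encodes Cx31.1, a connexin of the epidermis and other stratified epithelia. It had 1, 2, 0 and 0 counts in control and 83, 71, 115 and 91 counts in Klf4 libraries. The groups were far apart, and the 3 control reads all came from batch 1. The mean level went from 0.0156 ± 0.0197 to 1.77 ± 0.285 CPM (SD, n = 4). On so few control reads the ratio of summed counts was 115, with a 95% exact interval of 38.9 to 559 for counting error. edgeR fitted 6.62 as the log2 fold change (SE 0.43, adjusted p = 1.77e-11), a value that depends on edgeR's prior count. It was 5.55 in batch 1 and 9.64 in batch 2, where no control read was found, and the difference did not pass the interaction test (adjusted p = 0.444, unadjusted p = 0.0413). Without control replicate 2, which held 2 of the 3 control reads, it was 7.58.

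Gjb2 (ENSMUSG00000046352, chromosome 14, 57098600 to 57104702, minus strand) encodes Cx26 and Gjb6 (ENSMUSG00000040055, chromosome 14, 57123303 to 57133611, minus strand) encodes Cx30. The proteins work together in the supporting cells of the inner ear and are also found in skin. Gjb2 had no counts in any control library and 13, 9, 6 and 7 counts in the Klf4 libraries. Gjb6 also had no control counts and had 14, 7, 26 and 11 counts in the Klf4 libraries. Both genes were thus read in all 4 Klf4 libraries and in no control library, a pattern shown by 1.24% of the 33674 genes with a count. Neither reached the filter. Gjb2 stood at 0.174 ± 0.063 CPM in Klf4 libraries (SD, n = 4), at least 2.81-fold higher than a floor of 3 counts per control library. For Gjb6 the level was 0.282 ± 0.149 CPM (SD, n = 4), at least 4.54-fold above the same floor. The two-sided exact permutation p over the 4 against 4 libraries was 0.0286 for each. This is the smallest value that free relabelling of the libraries can give. The relabelling ignored batch, although libraries of a batch resemble each other, so this p is too small for a design in batches. With no filter on low counts edgeR gave adjusted p-values of 3.05e-05 for Gjb2 and 2.32e-09 for Gjb6, where 21.9% of genes were called. The size of these p-values should not be relied on. At nearly unchanged log2 fold changes, the unfiltered edgeR fit moved the adjusted p of Gjb1 from 5.04e-16 to 2.7e-197. That of Gjb5 moved from 1.77e-11 to 7.91e-60.

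Counting members over libraries rather than by the fit, 4 of the 7 members with a count had all Klf4 libraries above all control libraries, against 11.6% of all genes with a count. These were Gjb1, Gjb2, Gjb5 and Gjb6. The members were chosen with earlier results of these data known, so the comparison is a description and not a test.

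Panx1 (ENSMUSG00000031934, chromosome 9, 15002128 to 15045478, minus strand) encodes the widely expressed ATP-release channel. It had 44, 63, 16 and 14 counts in control and 74, 55, 46 and 32 counts in Klf4 libraries. In batch 1 the groups overlapped, and in batch 2 both Klf4 libraries lay above both control libraries. The means were 0.711 ± 0.489 and 1.03 ± 0.365 CPM (SD, n = 4), with a log2 fold change of 0.64 (SE 0.25) that did not pass the threshold (edgeR adjusted p = 0.0532). The log2 fold change was 0.24 in batch 1 (edgeR adjusted p = 0.598) and 1.27 in batch 2 (0.025), and the difference between the batches did not pass the interaction test (adjusted p = 0.462, unadjusted p = 0.0472). The call depended on single libraries: without control replicate 2 the log2 fold change was 0.87 (edgeR adjusted p = 0.0137), and without Klf4 replicate 2 it was 0.79 (0.0341).

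Panx1 also differed between batches. At a given plasmid its log2 level in batch 2 minus that in batch 1 was -1.26 (edgeR adjusted p = 0.000796), with control means of 1.11 CPM in batch 1 and 0.307 CPM in batch 2. Gjd2 was higher in batch 2, by 0.25 (edgeR adjusted p = 6.47e-05). Among all tested genes 25.1% differed between batches. Gjb1 (0.24, edgeR adjusted p = 0.301) and Gjb5 (0.22, 0.644) did not pass this test. Panx3 (ENSMUSG00000011118, chromosome 9, 37659902 to 37669235, minus strand), a pannexin of cartilage, bone and skin, had 0 counts in all 8 libraries, which allows up to 3 counts in each.

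**Figure D2:**
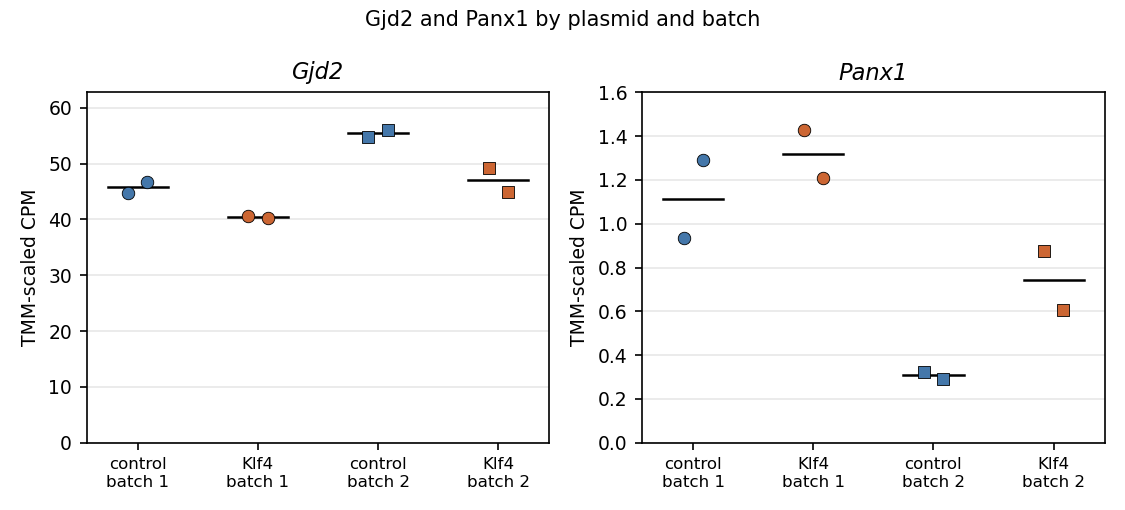
TMM-scaled CPM (vertical axes, from 0) of Gjd2 and Panx1 in each library, by plasmid and batch (horizontal axes); points are libraries and lines the mean of 2 libraries. Gjd2 is lower with Klf4 in each batch, and the control values of Panx1 fall from 1.11 CPM in batch 1 to 0.307 CPM in batch 2.

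To compare genes with each other, levels were divided by exonic length and are given as CPM per kilobase. In control cells Gjd2 stood at 17.6 ± 1.95 CPM per kilobase (SD, n = 4). The next member was Panx1 at 0.118 ± 0.0811, followed by Gjb1 at 0.0764 ± 0.0509, and these neighbours overlapped between libraries. Gjb5 followed at 0.00905 ± 0.0115. In Klf4 cells Gjd2 still led at 15.2 ± 1.48 CPM per kilobase. Gjb1 came next at 4.34 ± 0.607 and Gjb5 at 1.03 ± 0.165, each without overlap with the member above it. Panx1 (0.171 ± 0.0605), Gjb6 (0.106 ± 0.0558) and Gjb2 (0.0724 ± 0.0262) followed, and each of these overlapped the member above it apart from Panx1.

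Across all 20 connexin genes of the table, summed per length, the pool was 19.8 ± 1.93 CPM per kilobase in control and 25.5 ± 2.37 in Klf4 libraries (SD, n = 4). Gjd2 made up 86.1% to 89.5% of this sum in the control libraries and 59.1% to 59.9% in the Klf4 libraries. The share of Gjb1 went from 0.402% ± 0.299 to 17.0% ± 0.888 (SD, n = 4), and that of Gjb5 from 0.0496% ± 0.0626 to 4.02% ± 0.293. The groups did not overlap for any of these 3 shares. They describe transcripts, and no protein or channel was measured.

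**Figure D3:**
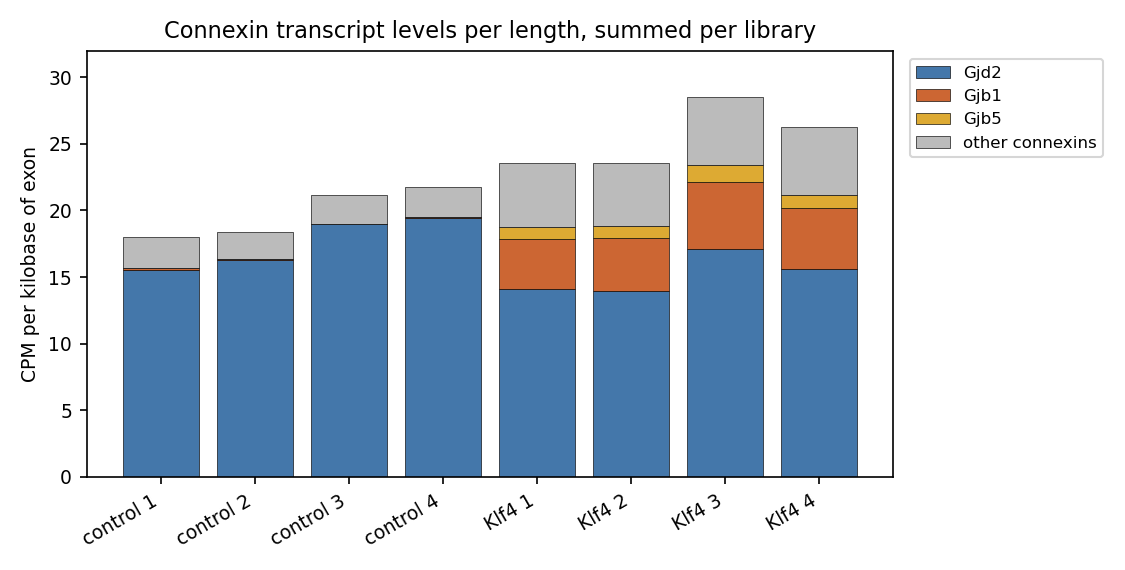
Summed connexin transcript levels (vertical axis, CPM per kilobase of exon, from 0) in each of the 8 libraries (horizontal axis), stacked by gene. The Gjd2 part is of similar height in all bars, while Gjb1 and Gjb5 are visible as separate parts in the Klf4 bars only.

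The other 15 connexin and pannexin genes of the table were read in the same fit. Of these, 7 were tested and 8 were below the filter. Among the 7, 4 were higher, none lower and 3 did not pass, against 21.1% higher and 15.5% lower over all tested genes. Of the 4, 3 had under 10 counts in every control library and so entered the test only through their Klf4 libraries. Panx2, a pannexin best known from the nervous system, was among those higher (2.55 on the log2 scale, SE 0.18, edgeR adjusted p = 7e-11). Its mean was 0.554 ± 0.114 CPM with the empty vector and 3.27 ± 0.422 CPM with Klf4 (SD, n = 4). Gjd4 rose on low counts, from 4 reads in all control libraries to 76 in all Klf4 libraries (4.03, SE 0.62, edgeR adjusted p = 1.7e-05). Gja4 (0.17, edgeR adjusted p = 0.774) and Gjd3 (0.31, 0.132) did not pass. For Gjd3 every Klf4 library still lay above every control library, at 1.68 to 1.82 against 1.36 to 1.46 CPM. Such a pattern was shown by 11.6% of all genes with a count. Per length Gjd3 ranked next to Gjd2 in control libraries, at 1.66 ± 0.058 CPM per kilobase (SD, n = 4). Gja10, with 19 control and 32 Klf4 reads in all, was below the filter, and 7 genes stayed under 10 counts in every library.

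**Figure D4:**
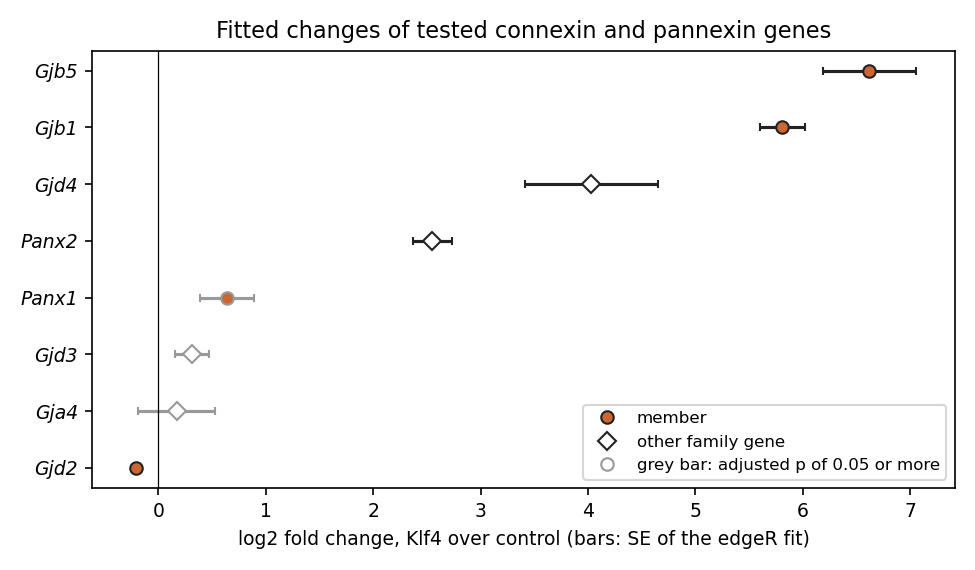
Log2 fold change of Klf4 over control (horizontal axis) for the 4 tested members (filled circles) and 4 of the 7 other tested family genes (open diamonds), with bars of 1 SE from the edgeR fit; grey bars mark genes that did not pass. Gjb5 and Gjb1 lie farthest to the right, Panx1 is at 0.64 and Gjd2 is the only point left of 0.

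Genes next to the members were read as well. Toward higher coordinates of chromosome 4 the protein-coding gene nearest to Gjb5, CK137956, lies 569410 bp away and was higher (3.52, SE 0.44, edgeR adjusted p = 1.01e-06). It had at most 11 counts in a control library and 43 to 53 in the Klf4 libraries. The filter thus kept CK137956 only through its Klf4 libraries, and 21.1% of all tested genes were called higher. On chromosome 14, Gm4491 lies between Gjb2 and Gjb6 and had 2 reads in all, and Gja3 on the far side of Gjb2 had 1. The protein-coding neighbours of Gjb1, Nlgn3 (-0.06, edgeR adjusted p = 0.763) and Zmym3 (-0.05, 0.192), did not pass.

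Markers of other cell types were read in the same libraries, because β-subfamily connexins are typical of epithelia. Of 14 markers of keratinocytes and stratified epithelium, 9 were tested, 8 were higher and none was lower, against 21.1% of all tested genes higher. Of the 8, 4 had under 10 counts in every control library, so the filter itself kept them only because they were high with Klf4. Krt15 (6, 0, 11 and 13 control counts) and Lor (9, 17, 10 and 12) also fell short of the filter in a control library. They too were kept through their Klf4 libraries, so the count of markers called higher depends largely on the filter. Their summed level was 8.63 to 12.4 CPM in control and 119 to 170 CPM in Klf4 libraries. The keratin gene Krt14 went from 0.00518 ± 0.0104 to 23.1 ± 6.12 CPM (SD, n = 4), while Trp63, the defining factor of basal keratinocytes, and Ivl had 0 counts in all libraries. Of 5 duct markers 3 were tested and all 3 were higher, with sums of 3.34 to 4.7 CPM against 8.46 to 9.11 CPM. Fibroblast markers summed to 4.41 to 5.69 CPM in control and 24.1 to 30.9 CPM in Klf4 libraries, with 4 of 5 tested higher (2 of the 4 on under 10 counts in every control library), mostly through Dcn at 17.6 ± 3.82 CPM (SD, n = 4), and Lum was at 0. Endothelial markers summed to 4.1 to 4.48 against 5.01 to 5.28 CPM, with Cdh5 higher from no control count. Leukocyte markers (6.27 to 6.69 against 6.2 to 7.47 CPM) and acinar markers (1.36 to 3.92 against 1.63 to 3.07 CPM) overlapped between groups. Most of the acinar sum was Cela1, which had control means of 1.46 CPM in batch 1 and 3.61 CPM in batch 2. Within the acinar list Ptf1a, a transcription factor of acinar cells, did not overlap between groups, with 1 count in all control libraries and 52 in all Klf4 libraries, below the filter. The part of these markers in the connexin changes was not tested. β-cell markers summed to 25300 to 32100 CPM in control and 23700 to 32400 CPM in Klf4 libraries. Klf4 itself was higher in every Klf4 library (40.1 ± 3.11 against 5040 ± 567 CPM, SD, n = 4), which checks the labels.

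Partners and regulators of gap junctions, such as scaffold proteins, cadherins and kinases, formed a list of 27 genes. For this list and those that follow, the share of all tested genes called higher was 21.1% and lower 15.5%, and 537 of the 3856 genes called higher had under 10 counts in every control library. Of 26 tested, 13 were higher, 5 lower and 8 did not pass, with a median log2 fold change of 0.08 against -0.01 over all tested genes. The filter kept 1 of the 13, Ccn3, only through its Klf4 libraries. Without the batch term 11 rather than 18 passed. The largest changes were in Ccn3, a matricellular protein known to bind Cx43 (3.78, SE 0.30, edgeR adjusted p = 7.13e-10), and Tjp3, a tight junction scaffold (1.8, SE 0.12, 3.79e-11). The kinase gene Camk2b (0.45, SE 0.03, 4.01e-11) and the membrane linker gene Ezr (0.32, SE 0.03, 4.04e-09) came next. Exons of Tjp3 and Ezr overlap other annotated genes (Apba3 and Sytl3), so their counts are uncertain. Tjp1, whose product ZO-1 binds the tail of several connexins including Cx36, was slightly lower (-0.12, SE 0.03, edgeR adjusted p = 0.00263). It stood at 176 ± 2.84 CPM with the empty vector and 162 ± 8.3 CPM with Klf4 (SD, n = 4). Cnst, which encodes the connexin-sorting protein consortin, was lower by a like amount (-0.12, SE 0.03, 0.00182).

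Other routes of ATP release and regulators of pannexin channels made a list of 16 genes. Of 12 tested, 7 were higher, none lower and 5 did not pass, with a median log2 fold change of 0.31. Of the 7, Lrrc8c had under 10 counts in every control library and Lrrc8e at most 13. The filter kept both only through their Klf4 libraries. In batch 1 alone 4 passed. Lrrc8e (3.51, SE 0.34, edgeR adjusted p = 1.84e-08) and Lrrc8c (2.93, SE 0.39, 2.18e-06) rose from low levels. Lrrc8b also rose (0.52, SE 0.07, 1.33e-06). All 3 encode subunits of volume-regulated anion channels, whose obligatory subunit gene Lrrc8a did not pass (-0.02, SE 0.07, edgeR adjusted p = 0.828). Calhm2 (0.74, SE 0.25, 0.0251) and the vesicular nucleotide transporter gene Slc17a9 (0.47, SE 0.11, 0.00175) completed the 5 largest, the exons of Calhm2 overlapping Pdcd11.

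Receptors for extracellular ATP and adenosine, with the enzymes that degrade them, made a list of 29 genes. Of 22 tested, 11 were higher, 1 lower and 10 did not pass, with a median log2 fold change of 0.35. Of the 11, P2ry4 and P2rx2 had under 10 counts in every control library and P2ry2 and Ada at most 13. P2rx1, P2ry6 and Alpl also had under 10 counts in a control library. The filter kept all of these through their Klf4 libraries, which tilts this count and median upward. The largest increases were in the nucleotide receptor genes P2ry4 (5.53, SE 0.46, edgeR adjusted p = 1.45e-09) and P2ry2 (5.13, SE 0.24, 3.52e-14). P2ry2 rose from 0.16 ± 0.0795 to 5.8 ± 2.02 CPM (SD, n = 4), and P2ry4 from 4 reads in all control libraries to 217 in all Klf4 libraries. The alkaline phosphatase gene Alpl (3.72, SE 0.19, 1.98e-13), the adenosine deaminase gene Ada (2.98, SE 0.29, 1.43e-08) and the ion-channel receptor gene P2rx2 (2.74, SE 0.62, 0.00126) followed. P2ry14 was the gene that fell (-0.53, SE 0.18, 0.0285). P2ry1, an ADP receptor found in β cells, stood at 42.4 ± 9.26 and 42.2 ± 11.8 CPM (SD, n = 4) and did not pass (-0.02, SE 0.04, edgeR adjusted p = 0.77).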

How the data were processed

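Read counts per gene were deposited by the authors as whole numbers, 1 column per library and not normalised. Totals were 45417853 to 52731176 counts per library. The submitters' processing notes list FastQC, STAR, featureCounts, edgeR and mm10, without versions, and the file's name adds cutadapt trimming. Annotation and strand setting were not given in the sources used here. All 55536 identifier and symbol pairs matched GENCODE M21 (GRCm38), which gave coordinates and exonic lengths.

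Genes were kept by filterByExpr (minimum count 10), which left 18266. TMM factors lay between 0.9963 and 1.005. edgeR 4.0.16 (R 4.3.3) fitted batch and plasmid with glmQLFit, following the series' design text, and p-values were adjusted by Benjamini-Hochberg over all tested genes with a threshold of 0.05. CPM values were computed here from counts and effective library sizes. Each batch alone was filtered and fitted anew. Alternatives used DESeq2 1.42.0, limma 3.58.1, other filters and scalings, and each library left out. The procedure was tested on simulated data. Single values were compared by exact permutation of all libraries, without regard to batch. Same-numbered libraries of the groups are tied by their batch label: their deviations from group means correlated at 0.46 to 0.61 over 10485 genes, and at -0.05 to 0.08 once batch means were removed. Replicate pairs differed by more than sampling noise (chi-square per degree of freedom 4.23 to 23.3), so all were kept.

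The members and gene lists were chosen with earlier results of these data known. Named with values were all members, other family genes with at least 10 counts in a library, and the 5 largest called changes of each list, apart from some genes that are not reported here but stay in the counts. Ptf1a, Cela1, Tjp1, Cnst, Lrrc8a, P2ry14 and P2ry1, the single marker genes apart from those at 0, and the neighbours described, were picked after their values were seen.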

Additional observations from a re-analysis of the deposited data

Results flagged for a closer look

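Among 11 sets of 4 replicates of the members, 1 had a single replicate set apart from the rest by Dixon's criterion, where chance alone gives about 0.55. Control replicate 4 stood at 0.0207 CPM of Gja1, which is 1 count, because the other 3 control libraries had 0. This lies below the floor of 3 counts. The plasmid difference of Klf4 and of the β-cell marker Mafa differed between batches in the edgeR interaction test. The log2 fold change in batch 2 minus that in batch 1 was 0.37 for Klf4 (adjusted p = 0.0057), whose Klf4 means were 4700 CPM in batch 1 and 5380 CPM in batch 2, against 42.6 and 37.6 CPM in control. It was -0.25 for Mafa (adjusted p = 0.00817).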

How the results depend on the processing

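Of 205 alternative values for 12 results, 192 kept their direction and side of the threshold or stayed near the reported value, and none reversed. Near was taken loosely: 4526 genes changed in batch 1 alone, against 6684, were counted among the 192. So was Panx1 at 0.24 in batch 1 alone, because it stayed on the same side of the threshold. Without the batch term 4116 genes changed over all tested genes against 6684, the list of gap junction partners gave 11 calls against 18, and Gjd2, at the same log2 fold change of -0.21, no longer passed (adjusted p = 0.103). When replicate numbers were fitted as a block and batch was left out, edgeR called 6284 genes, 3 members passed as before, and the values were -0.21 for Gjd2 and 0.65 for Panx1 (edgeR adjusted p = 0.0743); the block changed no call of a member. The number of members changed was 3 in the reported fit, 6 with no filter on low counts (Gjb2, Gjb6 and Panx1 added) and 5 in batch 2 alone (Gjb6 and Panx1 added). Over the fits that each left out 1 library it was 3 to 5, and it was 5 without control replicate 2 and without Klf4 replicate 2, where Gjb6 entered the test and Panx1 passed. The log2 fold change of Panx1 passed the threshold at 0.67 with factors from highly expressed genes (edgeR adjusted p = 0.048), at 0.63 with no filter (0.0286) and at 1.27 in batch 2 alone (0.025). It ranged from 0.46 to 0.87 over the fits that left out a library; the cause of these differences was not tested. In batch 1 alone the list of ATP release genes gave 4 calls against 7, from 2 libraries per group. Depth limits Gjb2, Gjb6, Gja1 and Panx3, which lay near or under the floor of 3 counts in a group.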

Other observations

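The genes whose pattern over the 8 libraries was most like that of Gjd2 were Dnajc2, a ribosome-associated co-chaperone gene (Pearson r = 0.995), Ehmt1, a histone methyltransferase gene (0.991), and Ap1s2, a clathrin adaptor gene (0.991), among 10484 genes whose average log2 CPM was 3 or more. Their log2 fold changes were -0.1, -0.11 and -0.17, and their likeness to Gjd2 fixed the direction. The genes most like Gjb1 were Slc4a11, a membrane transporter gene (r = 0.999, log2 fold change 4.98), Tppp3, a tubulin-binding gene (0.999, 1.4), and Ceacam1, a cell adhesion gene (0.999, 0.93). Likeness was measured on log2(CPM + 0.5), and the libraries share plasmid and batch, so these values are a description.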
